A study of Mus musculus with 36 samples.

Results

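Liver and gastrocnemius, the large calf muscle, were compared in male mice sired by fathers on a high-fat diet (HFD). All 6 liver count columns and all 6 gastrocnemius count columns entered, 12 of the 36 samples of the series, joined by gene identifier. By the labels each tissue held 3 samples of glucose-tolerant (HFDt) and 3 of glucose-intolerant (HFDi) offspring, all C57BL/6 wildtype. The column names did not say which was which, so tolerance was not separated.

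The sons ate chow. The treatment named in the labels was that of the fathers, which were fed HFD for 2 weeks before mating to unexposed females. No low-fat group of these tissues entered, so every value describes sons of HFD-fed fathers. The age of the sons at dissection was not given in the sources used here, and nothing linked a liver column to the muscle of the same animal. RNA came from whole tissue, so fewer cells of a type and less RNA per cell cannot be told apart. Each tissue was in a table of its own, and the tissue and its table or sequencing run cannot be told apart.

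The libraries held tags from the 3′ end of polyadenylated RNA. Total counts were 2036237 to 2552454 in liver. In gastrocnemius they were 369772 in library S4, 935991 in S7 and 1775036 to 2749920 in the other 4. Mitochondrial DNA gave 21.7 to 27.0% of counts in liver and 29.8 to 45.5% in gastrocnemius. After thinning to 369772 counts, 10431 to 10937 genes were detected in a liver library and 10307 to 10570 in a muscle library. Across 8943 genes, 2 libraries of liver correlated at 0.927 to 0.967 on the log2 scale and 2 of muscle at 0.874 to 0.966, while a liver and a muscle library correlated at 0.0975 to 0.171. These are descriptions across genes, which are not replicates. Levels are given as CPM, counts scaled to a library of 1000000, and a trio of values gives the lowest, median and highest of 6 libraries.

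Hepatocytes, the main cells of the liver, release most plasma proteins into the blood, turn amino acid nitrogen into urea, make bile acids, clear foreign compounds and supply glucose and ketone bodies to other organs. Skeletal muscle fibres are packed with sarcomeres, the repeating units of myosin and actin filaments that shorten when calcium leaves the sarcoplasmic reticulum. Muscle takes up glucose and fatty acids, stores glycogen for its own use and burns ketone bodies. Many enzymes therefore exist in a liver form and a muscle form encoded by separate genes.

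The tissue labels were checked against defining markers. Albumin (Alb) was at 19732, 32112 and 36872 CPM in liver and at 0, 0.99 and 2.11 CPM in muscle. The fast myosin heavy chain gene Myh4 was at 1.17, 3.17 and 24.1 CPM in liver and at 15327, 34351 and 36999 CPM in muscle. The summed CPM of 31 plasma protein genes was 117349 to 145389 in liver and 144 to 280 in muscle, and that of 41 sarcomere genes was 144 to 352 and 141179 to 216692. Every column therefore carried the markers of its labelled tissue.

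Of 54838 gene identifiers 25068 had a count and 8574 had enough counts to test with edgeR's quasi-likelihood test. At a Benjamini-Hochberg adjusted p under 0.05, 3234 genes were higher in liver (37.7% of those tested) and 2883 were higher in gastrocnemius (33.6%), while 2457 did not pass. Changes of at least 4-fold were seen in 1548 genes towards liver (18.1%) and 1063 towards muscle (12.4%). In 4303 genes, 50.2% of those tested, the lowest library of one tissue lay above the highest of the other, and all of these passed the threshold. Over every tested gene the log2 fold change had a median of 0.07, positive meaning higher in liver, and the median size among the called genes was 1.66. Of the called genes 1524 differed by less than 2-fold. A total of 285 tested genes had 0 counts in all muscle libraries and 92 had 0 counts in all liver libraries. For such genes a lower bound is given in place of a fitted fold, set against 3 counts over the 6 libraries. With 1 to 3 counts the ratio of pooled counts is given with its exact 95% interval, which covers counting error only.

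**Figure D1:**
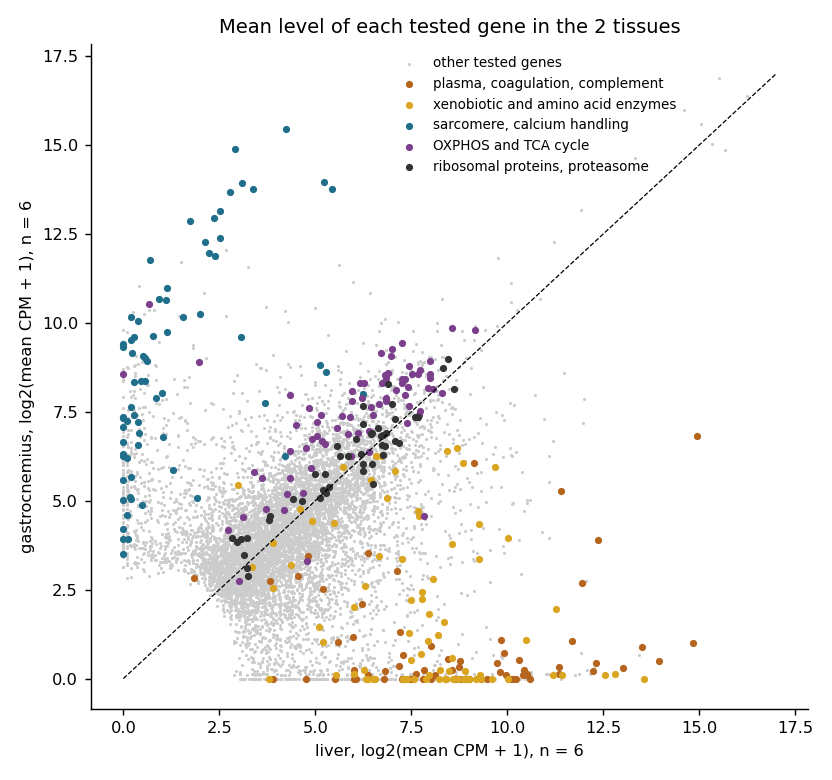
Mean level of each tested gene in liver (horizontal axis) against gastrocnemius (vertical axis), both as log2(mean CPM + 1) over 6 libraries; each point is a gene, coloured by gene list, and the dashed line marks equal levels. Plasma protein and xenobiotic genes lie along the bottom right, sarcomere and calcium genes along the top left, and ribosomal protein and proteasome genes lie near the line.

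The 120 bases before the transcription start are shown for a few genes that lay on opposite sides of the comparison, as RefSeq gives them for GRCm38.p6, 5′ to 3′ on the strand of the gene. The capitals mark matches to short motifs, read on either strand, so that GTTAAT also appears as ATTAAC. The first motif, GTTAAT, is a half-site of the liver factor HNF1, and CAAAGTCCA is a form of the sequence bound by HNF4A. These genes were higher in liver:
Alb, chr5:90460750-90460869, plus strand: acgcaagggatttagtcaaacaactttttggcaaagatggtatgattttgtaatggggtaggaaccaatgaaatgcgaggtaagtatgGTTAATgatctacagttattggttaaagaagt
Fabp1, chr6:71199759-71199878, plus strand: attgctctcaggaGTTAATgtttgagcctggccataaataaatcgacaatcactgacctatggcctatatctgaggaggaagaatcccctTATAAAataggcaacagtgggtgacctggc
Fga, chr3:83026033-83026152, plus strand: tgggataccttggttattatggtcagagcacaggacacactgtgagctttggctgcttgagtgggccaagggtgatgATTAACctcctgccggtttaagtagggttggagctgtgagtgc
Slco1b2, chr6:141629398-141629517, plus strand: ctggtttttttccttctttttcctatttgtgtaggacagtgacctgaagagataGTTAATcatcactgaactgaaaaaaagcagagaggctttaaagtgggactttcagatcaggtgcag
Igfbp1, chr11:7197667-7197786, plus strand: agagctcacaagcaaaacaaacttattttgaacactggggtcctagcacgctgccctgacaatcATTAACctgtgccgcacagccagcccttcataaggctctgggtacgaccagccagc
Cyp8b1, chr9:121916306-121916425, minus strand: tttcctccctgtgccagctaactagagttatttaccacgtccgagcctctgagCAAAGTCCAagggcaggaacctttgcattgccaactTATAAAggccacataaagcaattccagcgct
Cyp3a11, chr5:145879855-145879974, minus strand: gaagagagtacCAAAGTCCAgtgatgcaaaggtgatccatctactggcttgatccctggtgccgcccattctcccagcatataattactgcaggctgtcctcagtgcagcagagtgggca

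In Alb the match began 32 bases before the start, in Fga 43, in Igfbp1 56, in Slco1b2 66 and in Fabp1 107. In Cyp8b1 the CAAAGTCCA match began 67 bases before the start, and in Cyp3a11 109. TATAAA, the TATA box, stood 30 bases before the start of Fabp1 and 31 before that of Cyp8b1. The next genes were higher in gastrocnemius, and here the capitals mark CAGCTG (an E-box, the kind of site bound by MyoD-family factors), MEF2 sites, CArG boxes (bound by serum response factor) and TATAAA:
Myh4, chr11:67237692-67237811, plus strand: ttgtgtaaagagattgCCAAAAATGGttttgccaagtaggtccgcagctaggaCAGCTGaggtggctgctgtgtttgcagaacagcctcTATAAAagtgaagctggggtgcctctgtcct
Myl3, chr9:110763558-110763677, plus strand: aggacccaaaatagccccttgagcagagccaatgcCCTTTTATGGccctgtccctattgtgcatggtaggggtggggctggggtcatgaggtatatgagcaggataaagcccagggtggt
Ppp1r3a, chr6:14755275-14755394, minus strand: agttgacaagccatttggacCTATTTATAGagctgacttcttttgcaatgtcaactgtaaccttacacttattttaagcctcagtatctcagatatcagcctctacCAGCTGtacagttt
Xirp2, chr2:67445882-67446001, plus strand: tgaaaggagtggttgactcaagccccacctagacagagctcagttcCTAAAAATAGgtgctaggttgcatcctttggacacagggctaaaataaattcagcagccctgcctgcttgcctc
Nrap, chr19:56390039-56390158, minus strand: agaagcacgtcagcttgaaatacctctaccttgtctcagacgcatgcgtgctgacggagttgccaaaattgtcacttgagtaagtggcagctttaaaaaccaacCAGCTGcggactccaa
Rpl3l, chr17:24727706-24727825, plus strand: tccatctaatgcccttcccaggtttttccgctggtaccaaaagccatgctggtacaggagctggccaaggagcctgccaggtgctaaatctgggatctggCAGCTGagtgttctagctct

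Myh4 held a CArG box 104, an E-box 67 and a TATA box 31 bases before its start. Ppp1r3a held a MEF2 site 100 bases and an E-box 14 bases before, Xirp2 a MEF2 site 74 bases before, Myl3 a CArG box 85 bases before, Nrap an E-box 16 bases before and Rpl3l an E-box 20 bases before. Genes were picked for holding a match, so the shares over all genes matter more. Windows of 300 bases, 250 before to 50 after the start, were found for 27025 RefSeq genes, for 1179 of those at least 4-fold higher in liver and for 802 of those at least 4-fold higher in muscle. Both sets were drawn from tested genes, for 6689 of which a window was found. GTTAAT was in 7.25% of all windows and 4.65% of tested ones, in 8.82% of the liver set and in 4.11% of the muscle set. CAAAGTCCA was in 0.496%, 0.448%, 1.27% and 0.249% in that order. CAGCTG was in 16.2%, 14.5%, 16.5% and 21.6%, the MEF2 site in 0.559%, 0.643%, 0.254% and 2.62%, and the CArG box in 1.54%, 1.44%, 1.70% and 3.12%. TATAAA was in 14.1% of all windows, 7.79% of tested ones and 12.6% and 12.7% of the sets, so both sets lay below all promoters and above the tested ones. The MEF2 shares rest on 3 liver windows and 21 muscle windows. These matches are descriptions of letters in a window.

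The largest differences towards liver were taken among genes of at least 100 CPM. Cyp4a10, a fatty acid omega-hydroxylase, was at 7615, 10602 and 21168 CPM in liver and at 0 counts in every muscle library, at least 37206-fold higher. Its neighbour Cyp4a14 was at 4565, 6119 and 6834 CPM against 1 count in muscle. Mat1a, which makes S-adenosylmethionine, was at 6199, 7446 and 8165 CPM against 1 muscle count, a ratio of 68513 (95% interval 12296 to 2706150). The wide interval shows how little a single count fixes the size. The fatty acid carrier Fabp1 was at 3056, 4523 and 6210 CPM against 1 count, a ratio of 43468 (7801 to 1716920). Fetuin-A (Ahsg) stood at 11214, 16016 and 19098 CPM against 3 counts, and Alb had a fitted log2 fold change of 14.67 ± 0.44 (SE). Fibrinogen gamma (Fgg) was at least 4928-fold higher and the major urinary protein gene Mup3 at least 8608-fold higher. Mup3, Cyp4a10 and Cyp4a14 belong to families of near-identical genes, and how reads shared by copies were counted is not stated.

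The largest differences towards muscle were taken in the same way. Klhl31, a muscle regulator of the kelch family, was at 652, 916 and 1157 CPM against 0 counts in every liver library, at least 4346-fold higher. The Z-disc gene Myot was at least 2951-fold higher, the myofibril assembly gene Nrap at least 2745-fold, and Smpx, a small stretch-related muscle gene, at least 1845-fold. Ppp1r3a, the muscle subunit that targets a phosphatase to glycogen, was at 279, 423 and 483 CPM against 0 and at least 1997-fold higher. The deubiquitinase gene Usp13 was at 750, 874 and 948 CPM against 1 liver count, a ratio of 12189 (2187 to 481486). Cmya5, which encodes a large costamere protein, was at 1476, 2146 and 2627 CPM, with a log2 fold change of -12.51 ± 0.45. That value rests on 4 liver counts and was -14.97 without liver S24. The slow myosin light chain Myl3 was at 67.0, 200.2 and 2988 CPM, at least 1213-fold higher. Its highest value was in S4, and without that library it was at least 756-fold higher.

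Secreted plasma proteins separated the tissues. All 30 tested plasma protein genes of 31 listed were higher in liver, with a median log2 fold change of 12, or 11.38 with genes of 0 to 3 muscle counts set at their bound or ratio. Summed CPM was 643-fold higher in liver. Apolipoprotein A1 (Apoa1), the main protein of high-density lipoprotein, was at 6208, 8303 and 9569 CPM against 3 muscle counts in all. Transthyretin (Ttr), the carrier of thyroid hormone and retinol-binding protein, was at 9056, 11749 and 14721 CPM against 5 counts. The clotting list followed, with 20 of 21 tested genes higher in liver and a median of 11.29 (10.43 at the bounds). Fga was at 857, 1065 and 1386 CPM and at least 3514-fold higher, and Fgb reached 4595 to 5935 CPM with a log2 fold change of 13.37 ± 0.37. Antithrombin (Serpinc1) was at 2233, 2632 and 3003 CPM against 2 counts. All 20 tested complement genes were higher in liver, with a median of 7.21. C9, the last component of the membrane attack complex, was at 397, 544 and 585 CPM and at least 1653-fold higher, and C8a at least 1496-fold. The mannose-binding lectins Mbl2 and Mbl1 were at least 820-fold and 587-fold higher.

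Amino acid metabolism was mostly higher in liver. Of 51 tested genes 43 were higher in liver and 1 in muscle, with a median of 7.90. The 8 urea cycle genes were all higher in liver, and their summed CPM was 3696 to 6562 there and 2.96 to 10.1 in muscle. Carbamoyl phosphate synthetase (Cps1), the entry enzyme of the cycle, was at 424, 1062 and 1771 CPM in liver and 0 in muscle, at least 3410-fold higher. Its level varied 4-fold among liver libraries, lowest in S24 and highest in S13. Arginase (Arg1), the last enzyme, was at 1467, 2297 and 3119 CPM against 1 count. Tryptophan dioxygenase (Tdo2) was at 2241, 2734 and 3214 CPM against 1 count. In the branched-chain group, whose first step is known from muscle, 5 of 13 were higher in liver, 1 in muscle and 7 did not pass, and the median was 0.45. That share towards liver is near the 37.7% of all tested genes. The muscle member was Bckdk, the kinase that restrains branched-chain keto acid oxidation. It was at 3.75, 7.26 and 11.05 CPM in liver and 32.6, 39.9 and 62.3 CPM in muscle, without overlap, a log2 fold change of -2.57 ± 0.24 (edgeR quasi-likelihood test, Benjamini-Hochberg adjusted p = 2.57e-09).

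Bile acid and xenobiotic genes were all on the liver side. The 18 tested bile acid genes had a median of 9.96 (8.77 at the bounds), and the 29 xenobiotic genes a median of 8.69 (8.17 at the bounds). Cyp8b1, which sets the share of cholic acid, was at 721, 975 and 1878 CPM in liver and 0 in muscle, at least 3375-fold higher. The bile acid and drug uptake transporter Slco1b2 was at 1096, 1696 and 1919 CPM against 1 count. The canalicular exporter Abcc2 was at least 1323-fold higher and the bile acid coenzyme A ligase Slc27a5 at least 964-fold. Among drug-oxidizing enzymes Cyp3a11 was at 252, 586 and 1037 CPM and at least 1881-fold higher, and Cyp2d26 was at 357, 504 and 673 CPM and at least 1602-fold higher. Both Cyp3a11 and Cyp8b1 varied among liver libraries, and every liver library was above every muscle library for each.

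Genes of glucose handling were mostly higher in the tissue whose list they belonged to. Of 15 tested genes of hepatic glucose handling 14 were higher in liver, with a median of 7.79 (7.05 at the bounds). Fructose bisphosphatase (Fbp1) was at 1126, 1453 and 2230 CPM against 1 count, the transporter Slc2a2 at least 811-fold higher and the glucagon receptor Gcgr at least 324-fold higher. In the list of muscle glycolysis and glycogen use 17 of 19 tested genes were higher in muscle, with a median of -6.05. Phosphoglycerate mutase 2 (Pgam2) was at 0, 0.967 and 1.66 CPM in liver and at 433, 745 and 791 CPM in muscle, a log2 fold change of -9.54 ± 0.34. Beta-enolase (Eno3) was at 2.34, 2.96 and 4.58 CPM in liver and 1011, 1972 and 2441 CPM in muscle (-9.10 ± 0.30). The catalytic phosphorylase kinase subunit Phkg1 was at 62.3, 87.2 and 98.2 CPM in muscle against 2 liver counts, a ratio of 606 (167 to 5014). Against the rest, alpha-enolase (Eno1) was at 11.1, 18.02 and 27.6 CPM in liver and 0, 0.697 and 1.05 CPM in muscle (4.72 ± 0.42).

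**Figure D2:**
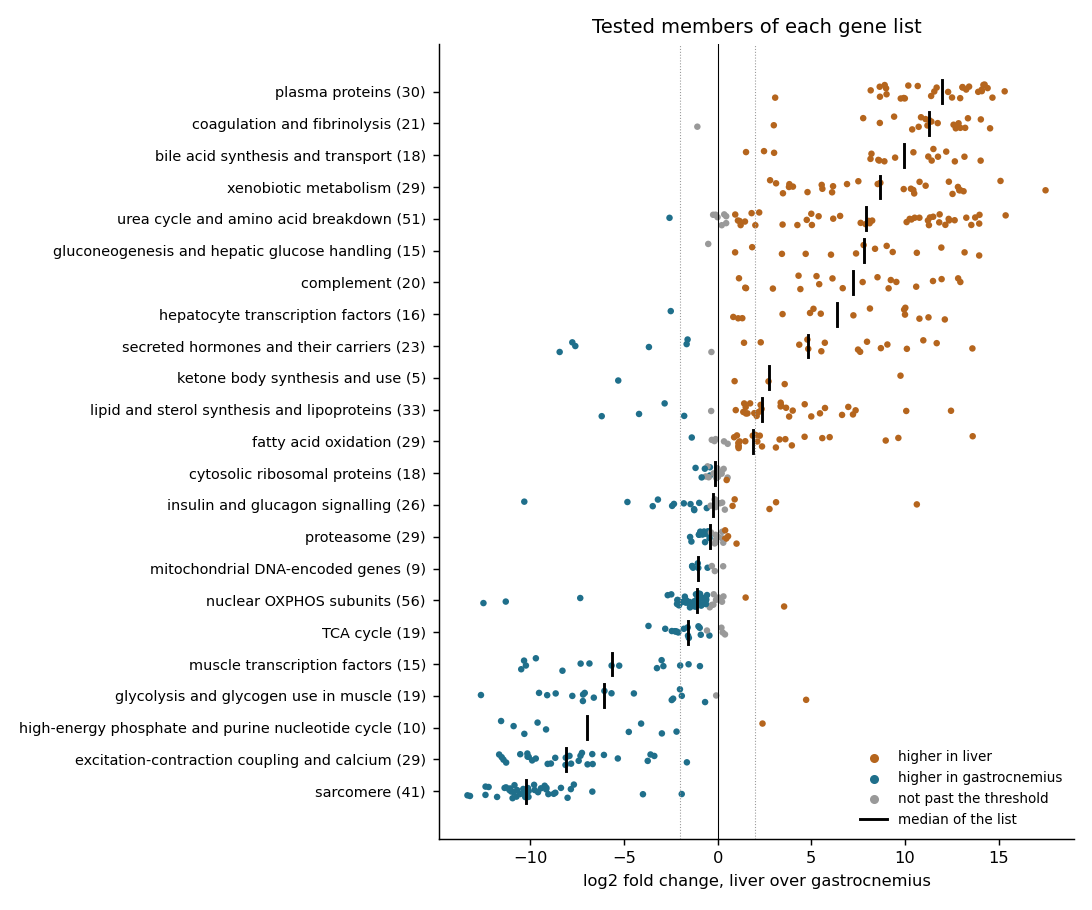
Log2 fold change of liver over gastrocnemius for the tested members of 23 gene lists, with the number tested in brackets; each point is a gene coloured by its call, black bars are list medians and dotted lines mark 4-fold. Genes at 0 counts in a tissue are plotted at their fitted value; the medians run from 12 for plasma proteins to -10.24 for the sarcomere.

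The contractile machinery was the mirror image. All 41 sarcomere genes were tested and higher in muscle, with a median of -10.24 (-9.80 at the bounds). Titin (Ttn), the spring that spans each sarcomere, was at 7.10, 11.3 and 55.7 CPM in liver and 31468, 48382 and 53764 CPM in muscle, a log2 fold change of -11.30 ± 0.56. Myh4 had a log2 fold change of -12.23 ± 0.63. Liver S24 was the highest liver library for both, and without it the values were -12.04 for Ttn and -13.28 for Myh4. Xirp2, an actin-binding repair protein, was at 2923, 3558 and 3985 CPM in muscle against 8 liver counts (-12.40 ± 0.38, or -13.06 without liver S24). Myh2, the fast oxidative myosin, was at 255, 621 and 3599 CPM against 2 counts. In the list of excitation-contraction coupling all 29 tested genes of 40 listed were higher in muscle, with a median of -8.11 (-7.89 at the bounds). Triadin (Trdn), which anchors the release complex, was at 4811, 7506 and 9496 CPM in muscle and 0.836 to 6.03 CPM in liver (-11.67 ± 0.41). The calcium release channel Ryr1 was at 595, 1115 and 1406 CPM in muscle against 4 liver counts (-11.53 ± 0.38). The calcium store protein Casq1 was at 441, 814 and 1230 CPM against 3 counts, and Jsrp1 at least 780-fold higher. Of 11 neuromuscular junction genes 3 reached the test, all higher in muscle.

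Phosphate buffering of ATP was on the muscle side, with 9 of 10 tested genes and a median of -6.95. Muscle creatine kinase (Ckm) was at 1785, 3465 and 4872 CPM in muscle and 0, 1.22 and 4.05 CPM in liver (-10.90 ± 0.50). Its mitochondrial partner Ckmt2 was at 221, 374 and 758 CPM against 1 count. Adenylate kinase Ak1 was at 229, 503 and 580 CPM against 4 counts (-10.32 ± 0.42), and the ATP/ADP carrier Slc25a4 at 3555, 3987 and 5505 CPM against 4.70 to 6.08 CPM in liver (-9.62 ± 0.25). The exception was Gamt, which completes creatine synthesis. It was at 19.98, 28.1 and 35.2 CPM in liver and 0, 5.95 and 6.63 CPM in muscle, a log2 fold change of 2.40 ± 0.29. Liver is known to make creatine that muscle takes up through Slc6a8, a transporter chosen here after its values were seen, which was at 0 to 4.18 CPM in liver and 27.5 to 41.5 CPM in muscle (-4.09 ± 0.32).

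Paired enzyme forms gave the same picture gene by gene. Of 31 pairs of a form known from liver and a form known from muscle, 17 had the liver form higher in liver and the muscle form higher in muscle. In 4 pairs the liver form was higher in liver and the muscle form was not tested, and in 7 the muscle form was higher in muscle and the liver form was not tested. Among single tested genes the shares were 37.7% towards liver and 33.6% towards muscle. They give no expectation for a pair, since pairs were chosen by known form and with earlier results of these data known. The fructose bisphosphatase Fbp2 was at 47.4, 57.1 and 94.6 CPM in muscle (-6.56 ± 0.37), with Fbp1 opposite. The insulin-responsive glucose transporter Slc2a4 was at 233, 277 and 302 CPM in muscle against 2 liver counts, while Slc2a2 was at 232, 251 and 285 CPM in liver and 0 in muscle. Among fatty acid binding proteins Fabp3 was at 137, 244 and 949 CPM in muscle and at 0 in liver, at least 1103-fold higher. The vessel-wall lipases differed likewise, Lipc at 5.73 ± 0.37 and Lpl at -6.19 ± 0.44. Glycogen synthase gave a ratio of 962 (172 to 38014) for Gys2, with 1 muscle count, and a log2 fold change of -5.67 ± 0.32 for Gys1, and Gys1 was at -6.27 without liver S23.

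Some pairs departed from a full exchange. In cytochrome oxidase subunit 7A, Cox7a1 was higher in muscle (-7.34 ± 0.29) while Cox7a2 stood at 163, 188 and 373 CPM in liver and 130, 185 and 235 CPM in muscle and did not pass (0.23 ± 0.20). Both AMP kinase catalytic genes were higher in muscle, Prkaa1 at -0.99 ± 0.34 and Prkaa2 at -2.33 ± 0.25. Of the acetyl-CoA carboxylases Acaca was higher in liver by 1.59 and Acacb in muscle (-4.20 ± 0.25). Adss stood at 1.70 and the muscle form Adssl1 at -4.75. The liver phosphofructokinase Pfkl was only 1.11 higher in liver (edgeR quasi-likelihood test, Benjamini-Hochberg adjusted p = 0.0413). Its groups overlapped, with 67 counts in liver and 21 in muscle. The Pfkl call was lost when liver S14, S15, S23 or S24 or gastrocnemius S5, S7, S8 or S9 was left out alone. It was also lost without gastrocnemius S4 and S7 together. By contrast, Pfkm stood at -7.76 ± 0.33. Phka2 was 1.02 higher in liver and lost its call without gastrocnemius S8 (0.84). The ribosomal protein form Rpl3l, known from muscle, stood at -8.71, with too few counts of Rpl3 to test. The pair Atp5g2 and Atp5g1 had too few counts in either tissue to test.

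**Figure D3:**
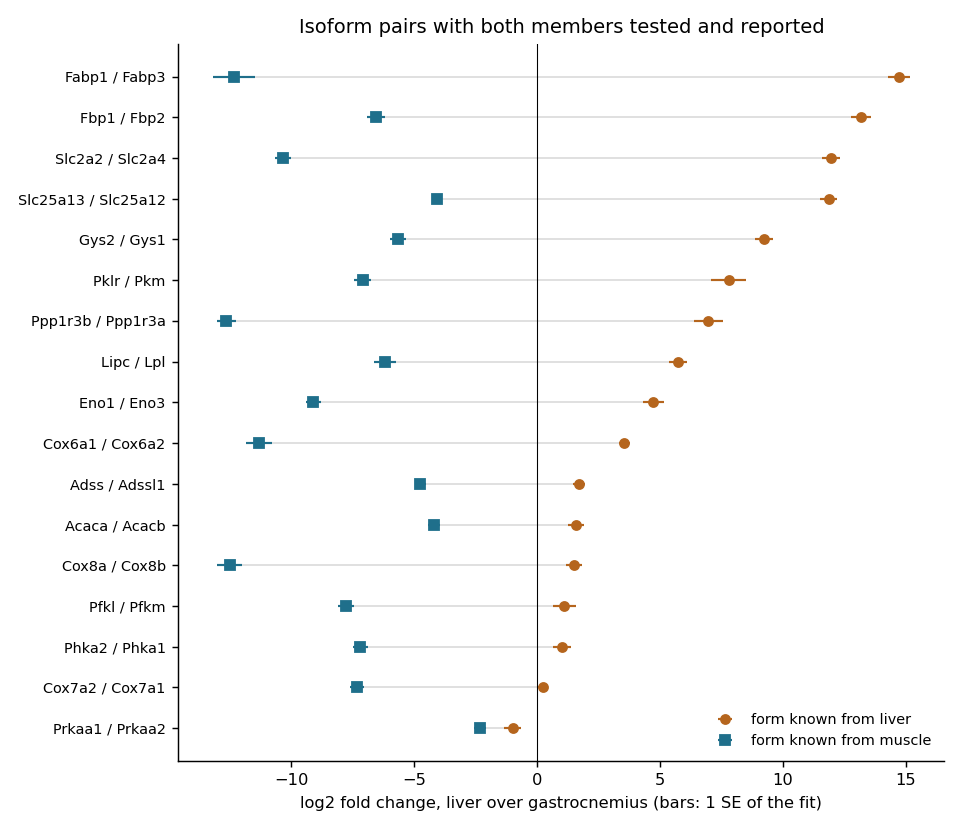
Log2 fold change of liver over gastrocnemius for 17 of the 19 pairs with both forms tested, 2 pairs not being shown, circles for the form known from liver and squares for the form known from muscle, with bars of 1 SE. Of those drawn, 15 span 0 with both forms past the threshold; Cox7a2 lies near 0 and both AMP kinase genes lie to the left. Forms at 0 counts in a tissue are drawn at the fitted value.

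Mitochondrial energy genes were higher in muscle by much smaller factors. Of 9 tested genes of mitochondrial DNA 6 were higher in muscle and 3 did not pass, with a median of -1.03. mt-Nd1, a subunit of complex I, was at 21539, 24570 and 29993 CPM in liver and 43574, 67583 and 75681 CPM in muscle, without overlap (-1.36 ± 0.24). mt-Nd4 was at 37644, 42941 and 58943 CPM in liver and 71293, 122960 and 168636 CPM in muscle (-1.36 ± 0.27). mt-Cytb of complex III was at 6333, 10719 and 14261 CPM in liver and 23114, 25727 and 28570 CPM in muscle (-1.31 ± 0.24), and mt-Nd5 stood at -1.06 ± 0.19. The ribosomal RNAs differed less. mt-Rnr2 was at 56498, 72086 and 108652 CPM in liver and 61380, 80434 and 114142 CPM in muscle (-0.15 ± 0.27), and mt-Rnr1 gave 0.29 ± 0.25, and neither passed. mt-Nd2 was at 27224, 34081 and 40957 CPM in liver and 39648, 51031 and 59004 CPM in muscle (-0.54 ± 0.23, edgeR quasi-likelihood test, Benjamini-Hochberg adjusted p = 0.0400). This call was lost when any of 7 single libraries was left out, among them S4 and S7.

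Nuclear genes of the respiratory chain moved with them. Of 56 tested subunits 46 were higher in muscle, 2 in liver and 8 did not pass, with a median of -1.13. Cox8b was at 249, 328 and 661 CPM in muscle and 0 in liver, at least 1610-fold higher, and Cox6a2 was at 839, 1494 and 2140 CPM in muscle against 7 liver counts (-11.32 ± 0.53, or -14.47 without liver S24). Atp5j, a subunit of ATP synthase, was at 1.51, 25.2 and 42.4 CPM in liver and 80.05, 105 and 281 CPM in muscle (-2.67 ± 0.43). The 2 liver members were Cox6a1, at 208, 232 and 247 CPM in liver and 11.5, 18.5 and 50.4 CPM in muscle (3.55 ± 0.24), and Cox8a (1.49 ± 0.32), the partners of the muscle forms. In the tricarboxylic acid cycle 15 of 19 genes were higher in muscle and none in liver, with a median of -1.58. Isocitrate dehydrogenase subunit Idh3a was at 14.8, 19.4 and 24.7 CPM in liver and 184, 237 and 376 CPM in muscle (-3.70 ± 0.19). Malate dehydrogenase (Mdh2) stood at -2.45 ± 0.20 and succinate dehydrogenase subunit Sdhb at -2.28 ± 0.23.

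Fat burning leaned the other way. Of 29 tested fatty acid oxidation genes 23 were higher in liver, 1 in muscle and 5 did not pass, with a median of 1.87. The median was 3.79 for 10 peroxisomal and omega-oxidation genes and 1.11 for 14 genes of mitochondrial beta-oxidation, of which 10 were higher in liver and 4 did not pass. The peroxisomal thiolase Acaa1b was at 1037, 1797 and 4519 CPM in liver against 1 muscle count, although its near copy Acaa1a makes the split between them uncertain. Cpt1a, the liver form of the gate for fatty acid entry into mitochondria, was at 528, 579 and 683 CPM in liver and 3.67, 10.6 and 17.8 CPM in muscle (5.98 ± 0.27). The muscle form Cpt1b had 0 counts in all 12 libraries, where another gene model overlaps it, so this step was not measured in full in muscle. Ehhadh of the peroxisome was at 197, 280 and 491 CPM against 3 counts, and the carnitine synthesis gene Bbox1 at 47.6, 85.5 and 125 CPM against 1 count. The peroxisomal transporter Abcd2 was the muscle member (-1.38 ± 0.34), with overlapping groups.

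Of 5 tested ketone body genes 4 were higher in liver and 1 in muscle, with a median of 2.72. The muscle member was Oxct1, which commits ketone bodies to oxidation and is known to be missing from hepatocytes. It was at 6.64, 13.1 and 21.6 CPM in liver and 319, 536 and 883 CPM in muscle (-5.31 ± 0.32). The groups did not overlap. Bdh1, which interconverts the ketone bodies in both directions, was at 204, 301 and 395 CPM in liver and 7.23, 27.2 and 139 CPM in muscle (2.72 ± 0.48). Its highest muscle values were in S4 and S7, and without those 2 libraries the value was 3.89. Acat1, used in both pathways, gave 0.90 ± 0.24 with overlapping groups.

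Lipid and sterol synthesis was mostly on the liver side, with 28 of 33 tested genes and a median of 2.35. Lcat, which esterifies plasma cholesterol, was at 153, 190 and 201 CPM against 1 muscle count. Mttp, which loads lipid onto apolipoprotein B, was also higher in liver (7.23 ± 0.31). The 4 muscle members were Lpl, which frees fatty acids from plasma lipoproteins, Acacb, whose product malonyl-CoA inhibits carnitine palmitoyltransferase, the phosphatidate phosphatase Lpin1 (-2.83 ± 0.26) and malic enzyme Me1 (-1.79 ± 0.19). Lpl was at 10.6, 18.8 and 24.1 CPM in liver and 537, 844 and 2811 CPM in muscle. Its 2 highest muscle values were in S7 and S4, and without them its log2 fold change was -5.35.

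**Figure D4:**
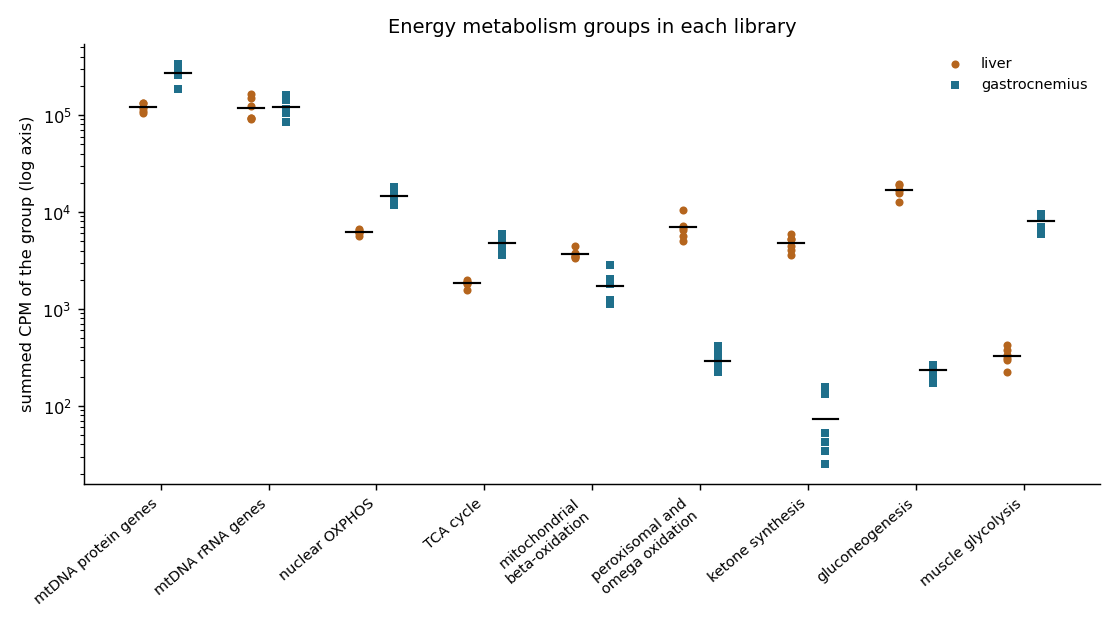
Summed CPM of 9 groups of energy genes in each library on a log axis, circles for liver and squares for gastrocnemius, with bars at the mean of 6. The tissues separate in all groups except the mitochondrial ribosomal RNAs. The ketone synthesis group in muscle splits into S4 and S7, at 157 and 132 CPM, and the other 4, at 25.3 to 52.2 CPM. This group includes Bdh1, which works in both directions and had its highest muscle values in S4 and S7.

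Transcription factors followed the tissues. Of 16 tested hepatocyte factors 15 were higher in liver and 1 in muscle, with a median of 6.38 (5.31 at the bounds). Hnf4a, a master regulator of hepatocyte genes, was at 118, 188 and 212 CPM against 1 muscle count, a ratio of 1708 (306 to 67472). The fasting-responsive Creb3l3 was at 256, 290 and 320 CPM and at least 916-fold higher, Foxa3 at least 487-fold and the xenobiotic receptor Nr1i3 at least 356-fold. All 15 tested muscle factors were higher in muscle, with a median of -5.66. Myf6, a MyoD-family factor of mature fibres, was at 50.4, 86.1 and 143 CPM and at least 420-fold higher. Vgll2, a cofactor of muscle genes, was at least 303-fold higher. The stretch-responsive Ankrd2 was at 61.5, 162 and 815 CPM against 3 counts, highest in S4.

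Secreted hormones and their carriers were split by known source. Of 15 tested genes known from liver all were higher in liver, and of 8 known from muscle 6 were higher in muscle, 1 in liver and 1 did not pass. Hepcidin (Hamp), which lowers plasma iron, was at 510, 686 and 1437 CPM and at least 2595-fold higher. The insulin-like growth factor carriers Igfbp2, at 420, 581 and 687 CPM against 1 count, and Igfbp1, at least 421-fold higher, were on the same side, as was Inhbe, a subunit of activin E, at least 224-fold. Myostatin (Mstn), which limits muscle mass, was at 26.7, 43.8 and 65.6 CPM in muscle against 1 liver count, a ratio of 683 (122 to 27017). Fndc5, the precursor of irisin, was at 22.9, 37.8 and 139 CPM against 2 counts, and osteocrin (Ostn) at least 58.1-fold higher.

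Of 26 tested genes of insulin and glucagon signalling 5 were higher in liver, 12 in muscle and 9 did not pass, with a median of -0.27. Over all tested genes the shares were 37.7% towards liver and 33.6% towards muscle. Beside Slc2a4, the muscle genes included Tbc1d1 (-4.82 ± 0.37, or -5.51 without liver S14) and Tbc1d4 (-3.47 ± 0.28), which hold the transporter inside the cell, and the adaptor Grb10 (-3.19 ± 0.32). Tbc1d4 was at 1.17, 3.54 and 6.58 CPM in liver and 30.6, 38.8 and 50.5 CPM in muscle. Beside Gcgr, the liver genes included the stress-induced Trib3 (3.12 ± 0.45) and the adaptor Grb14 (2.77 ± 0.24). Grb14 was at 51.7, 72.6 and 91.7 CPM in liver and 6.42, 10.5 and 23.7 CPM in muscle.

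Ribosomal protein and proteasome genes, which every cell uses, showed small differences. For comparison, 37.7% of all tested genes were higher in liver and 33.6% in muscle. Of 18 tested ribosomal protein genes 1 was higher in liver, 5 in muscle and 12 did not pass, with a median of -0.14. Across other scalings the counts ran from 0 to 1 and from 2 to 8, and the median from -0.32 to -0.07, so how many members are called depends on the scaling. The median turned positive, at up to 0.35, among genes with 10 counts in all 12 libraries and after thinning to 369772 counts. Rps18 (-1.18 ± 0.38) and Rps2 (-0.85 ± 0.27) were the larger muscle differences and Rpl32 the liver one (0.48 ± 0.18), whose call was lost without gastrocnemius S7 (0.34) or S8 (0.41). Many ribosomal protein genes have near-identical pseudogenes and had few counts, 16 of 34 too few to test. Of 29 tested proteasome genes 15 were higher in muscle and 5 in liver, with a median of -0.43, and other scalings gave 12 to 16 and 2 to 5. Among genes with 10 counts in all 12 libraries the median was 0.0087. Psmd7 was at 102, 119 and 138 CPM in liver and 211, 343 and 389 CPM in muscle (-1.40 ± 0.17), whereas Psmd13 was 1.01 ± 0.24 higher in liver.

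Among 8497 genes tested under every scaling, 584 stayed within 0.25 of 0 on the log2 scale under all of them. Glutamine synthetase (Glul), which joins ammonia to glutamate, was the most abundant, at 282, 642 and 922 CPM in liver and 323, 631 and 773 CPM in muscle (0.05 ± 0.23). The complex I subunit Ndufa6 was at 407, 443 and 560 CPM in liver and 364, 466 and 659 CPM in muscle (-0.04 ± 0.17). Eif4g1 at -0.03, Serinc3 at -0.06, Top1 at 0.09 and Hspa9 at 0.18 were the others of highest level. A value near 0 with its error does not show that levels were equal.

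Marker genes of cells other than hepatocytes and fibres were counted in both tissues, for some cell types with few genes tested. In liver, 5 of 7 tested Kupffer cell and macrophage genes (10 listed) and 5 of 6 of the sinusoidal endothelium (6 listed) were higher. So were 3 of 3 tested genes of stellate cells (6 listed) and 2 of 2 of bile duct epithelium (6 listed). The shares over all tested genes were 37.7% towards liver and 33.6% towards muscle. The Kupffer cell genes Cd5l, at 22.6, 28.03 and 55.2 CPM, and Clec4f, at 14.2, 18.97 and 37.7 CPM, had 0 counts in muscle. The sinusoidal genes Oit3 and Clec4g were at least 48.1-fold higher and at a ratio of 259 (46.2 to 10258). The stellate gene Colec11 stood at 5.76 ± 0.32. In muscle, 6 of 6 tested fibroblast and matrix genes (7 listed) and 4 of 4 smooth muscle genes (5 listed) were higher. Examples were the collagens Col1a2 (-3.48 ± 0.25) and Col1a1 (-4.06 ± 0.38, or -4.81 without liver S15). The call of the smooth muscle gene Tagln (-1.23 ± 0.52) was lost when any of 7 libraries was left out. Only 1 of 6 listed tendon genes and 1 of 6 listed Schwann cell genes were tested. The tendon gene Thbs4 was at 38.6, 62.01 and 111 CPM in muscle and at 0 counts in liver. The Schwann cell myelin gene Pmp22 stood at -4.22 ± 0.43, or -3.62 without S4 and S7. The general endothelial genes Pecam1 (-1.23 ± 0.25) and Kdr (1.18 ± 0.23) lay on opposite sides. The adipocyte gene Fabp4 was at 3.52, 12.6 and 19.1 CPM in liver and 215, 369 and 946 CPM in muscle, while Cidec was higher in liver (3.23 ± 0.47). Of 5 tested red cell genes 1 was higher in liver, 1 in muscle and 3 did not pass, and Hbb-bs was at 234 to 363 CPM in liver and 329 to 519 CPM in muscle.

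The muscle libraries were not alike in fibre type. A set of 6 slow-fibre genes chosen after the values were seen (Myh7, Myl2, Myl3, Tnnt1, Tnni1 and Tnnc1) summed to 6113 CPM in S4 and to 123 to 622 CPM in the other 5. This was 11.9% of the slow and fast sum in S4 and 0.152 to 1.25% in the others. Fast genes (Myh4, Myh1, Tnnt3, Tnni2, Tnnc2 and Actn3), also chosen after the values were seen, summed to 45208 CPM in S4, 49330 in S7 and 78556 to 83921 in the rest. Within this set Myh1 did not follow the sum. Its level was 1142 CPM in S7, 593 in S4, 674 in S5 and 263 to 296 CPM in S6, S8 and S9. The fast oxidative myosin Myh2 was not in the set and went the other way. It was at 3599 CPM in S4, 1496 in S7 and 255 to 843 CPM in the rest. The slow myosin Myh7 was at 608 CPM in S4 and at 9.64 to 70.5 CPM elsewhere, and had 0 counts in liver. S4 and S7 are also the shallowest libraries, with the highest shares of mitochondrial counts. Their summed mitochondrial beta-oxidation genes were 2870 and 2052 CPM against 1111 to 1787 CPM in the other 4, and the summed adipocyte markers were 617 CPM in S4, 1185 in S7, 640 in S9 and 249 to 413 in the other 3. Adipoq was at 59.3, 46.3 and 50.01 CPM in S4, S7 and S9 and at 3.82 to 8.26 CPM in the other 3. The part of fibre type, fat or depth in any tissue difference was not tested. Without S4 and S7, a choice made after seeing the data, 3416 genes were higher in liver and 3090 in muscle, of 9310 tested. With all libraries these counts were 3234 and 2883 of 8574, so the larger counts come with more genes tested.

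**Figure D5:**
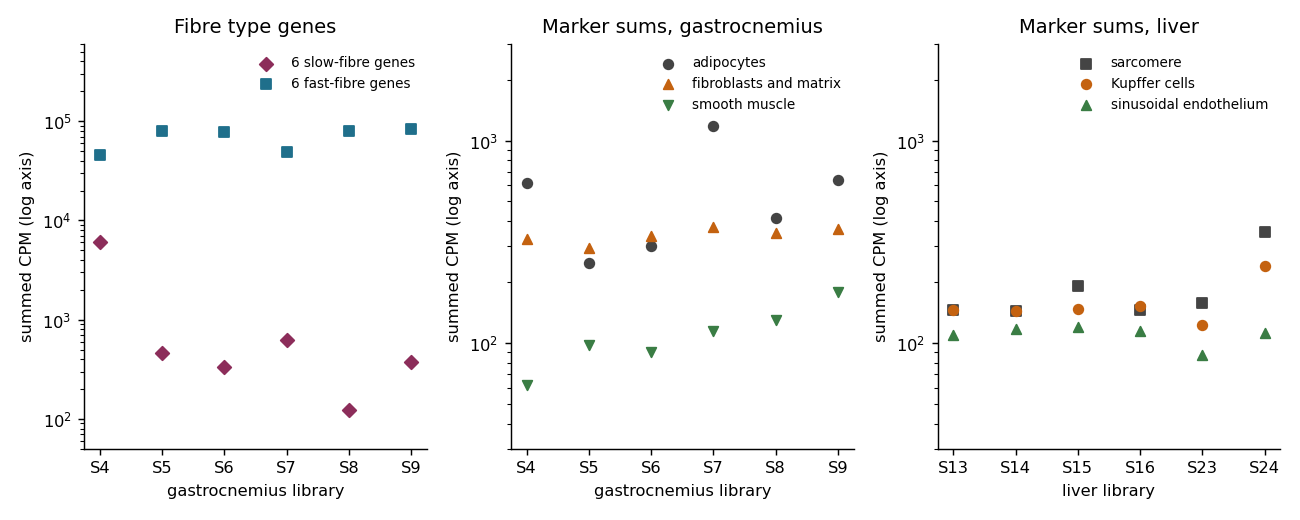
Summed CPM on log axes for single libraries. Left, 6 slow-fibre and 6 fast-fibre genes in muscle, with S4 highest for slow genes at 6113 CPM; middle, marker sums of other cells in muscle, with adipocyte markers highest in S7 at 1185 CPM; right, marker sums in liver, with S24 highest for sarcomere and Kupffer cell genes at 352 and 240 CPM.

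Liver libraries also differed among themselves. S24 had the highest summed sarcomere CPM, 352 against 144 to 191 in the other 5, and the highest summed Kupffer cell markers, 240 against 123 to 153. All liver values of sarcomere genes were far below those of muscle, and their source was not tested.

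Low counts could not always be read as low expression. A total of 11 members of the lists had 0 counts in all 12 libraries, including Pgam1, Rapsn, Gatm, Cpt1b, mt-Co2, mt-Co3, mt-Atp6, mt-Atp8, Hhex and Cd79a. Some of these are mitochondrial genes that every tissue uses. For Cpt1b, the muscle form of carnitine palmitoyltransferase, another gene model, Gm44502, covered 100% of the last 500 exonic bases on the same strand. Any overlap on the same strand, however short, was found for 3 of the 11 members at 0, and the other two, mt-Atp6 and mt-Atp8, were covered over 0.2% and 21.1% of these bases. Such overlaps were found for 8.66% of 127 members counted but not tested and 1.77% of 622 tested. Muscle glycogen phosphorylase (Pygm) had 26 counts in muscle and 0 in liver, Gapdh 28 and 6, and Rpl3 2 and 6. Comparisons for such genes are left out, and how reads in overlapping or duplicated genes were counted was not stated.

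Sex-linked and noncoding genes gave a last check. The Y-linked Ddx3y was at 71.8 to 109 CPM in liver and 101 to 149 CPM in 5 muscle libraries, but at 30.05 CPM in S5, and did not differ past the threshold between tissues (-0.28 ± 0.25). Of 4 tested Y-linked genes 2 were higher in liver. They were Kdm5d (1.10 ± 0.32) and Uty (1.06 ± 0.32), named after their values were seen. Gm42418, a noncoding gene that overlaps ribosomal RNA sequence, was at 34274, 44426 and 98542 CPM in liver and 18609, 28950 and 42264 CPM in muscle (0.79 ± 0.29, edgeR quasi-likelihood test, Benjamini-Hochberg adjusted p = 0.0194). Its call was lost without liver S14 (0.53) or without gastrocnemius S4 (0.66).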

How the data were processed

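The 2 tables hold raw read counts per Ensembl gene, which the authors deposited without normalization. RNA was extracted with TRIzol, QuantSeq 3′ FWD libraries were sequenced as single 50-base reads on a HiSeq 2500, and within the AIR software reads were trimmed with BBDuk, mapped with STAR to GRCm38 and counted with featureCounts (versions, strand setting and treatment of multi-mapping reads not given in the sources used here). A 3′ tag count does not scale with transcript length, and tags can be lost where gene models overlap.

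The tables were joined on 54838 shared identifiers. Genes were kept with edgeR's filterByExpr (minimum count 10), scaled by TMM and tested with glmQLFit and glmQLFTest (edgeR 4.0.16, R 4.3.3) with tissue as the only term, 6 libraries against 6. Calls needed a Benjamini-Hochberg adjusted p under 0.05, and the stricter rule a fold of 4. CPM are counts scaled to 1000000 of TMM-scaled library size. The design was taken from the tissue labels, and p-values measure the spread between these libraries. The steps were run on simulated data in which far fewer genes were shifted, and by smaller factors, than differed between these tissues. That run does not test the scaling or the calls at differences of this size.

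Members, gene lists and pairs were chosen with earlier results of these data known. Genes are named if they had the largest change or share, led a list or were its exceptions, belonged to an isoform pair or stayed nearest 0. Alternatives were DESeq2 1.42.0, limma 3.58.1 (voom), other scalings and filters, thinning and leaving out libraries. A few genes are not reported here. Other tables of the series were not used. Promoters came from RefSeq (GRCm38.p6), 1 window a gene, matched by symbol.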

Additional observations from a re-analysis of the deposited data

Results flagged for a closer look

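In each tissue, list sums and named genes were examined for a single library far from its nearest neighbour (Dixon's test on 6 values). Of 307 groups 24 stood out, where chance at 5% gives 15.35. Liver S24 accounted for 6 and gastrocnemius S4 for 5.

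In liver S24 the summed sarcomere genes were at 352 CPM (nearest other library 191), the summed Kupffer cell markers at 240.1 (153), Ttn at 55.7 (13.7), Psmd13 at 184 (82.7), Cd5l at 55.2 (30.9) and Cox7a2 at 373 CPM (198). In gastrocnemius S4, the shallowest library, Lpin1 was at 344 CPM (663), Tbc1d1 at 23.7 (53.0), Pfkm at 795 (1150), Phka1 at 205 (461) and Glul at 323 CPM (569). All 5 were the lowest of their tissue.

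In gastrocnemius S7 Pgam2 was at 433 CPM (728) and Jsrp1 at 81.1 CPM (158), and in S6 the summed endothelial markers were at 95.6 CPM (144) and Rpl4 at 357 CPM (424). In liver S15 the summed bile acid genes were at 5170 CPM (6098), Cyp4a14 at 4565 (5990), Reln at 23.9 (18.1) and Glul at 282 CPM (641). In liver S23 the summed sinusoidal markers were at 86.9 CPM (109), Sdhb at 95.3 (129) and Ecm1 at 25.1 CPM (33.8). In liver S14 Rps9 was at 3.55 CPM (11.7) and Col3a1 at 0.506 CPM (8.04). No cause was tested for any of these.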

How the results depend on the processing

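No paired analysis was possible because the columns carry no animal or replicate number shared between the tissues. Counts of genes higher in liver, higher in gastrocnemius, at least 4-fold higher in liver and at least 4-fold higher in gastrocnemius stayed within 1.5 times the reported ones with DESeq2 (3315, 2790, 1583 and 1042), voom (3198, 2913, 1554 and 1086), other scalings and leaving out any library (3202 to 3313, 2810 to 3050, 1565 to 1644 and 1078 to 1194). They moved with fewer genes tested: 813, 849, 141 and 146 of 2282 genes with 10 counts in all 12 libraries, and 1331, 1205, 784 and 494 of 3332 genes after thinning to 369772 counts. Without a filter, over 25068 genes, 4460 were higher in muscle, and 2720 and 2542 passed the 4-fold rule. mt-Rnr2, not called, changed sign to 0.23 in the strictest filter. List medians that changed sign with fewer genes tested were those of ribosomal proteins, proteasome, Kupffer cells (to -0.64), red blood cells (to 0.036) and sex-linked genes (to -0.11). Upper-quartile scaling shifted the median of all genes to -0.10 and gave 2911 against 3217 genes, and library totals shifted it to 0.14.

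Calls lost when 1 library was left out were those of mt-Nd2, Gm42418, Rps9, Rpl4, Rpl32, Psmd4, Tagln, Pfkl and Phka2. Among genes with over 3 counts in the lower tissue, sizes moved by over 1.5 times without liver S24 (Cmya5, Cox6a2, Myh4, Xirp2, Ttn and Pkm, -7.74), liver S14 (Rpl3l -9.39, Tbc1d1, Tagln -1.91), liver S23 (Gys1, Cfd -6.12), liver S15 (Acta2 -4.55, Col1a1, Myh11 -3.94), gastrocnemius S8 (Adgre1 3.04) and gastrocnemius S5 (Reln 4.51). The size for a gene with 0 to 3 counts in a tissue is limited by depth.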
